A study of Mus musculus with 15 samples.

Results

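The genes examined are 10 members of the Polycomb repressive system, Ezh2, Ezh1, Eed, Suz12, Jarid2, Mtf2, Rnf2, Ring1, Kdm2b and Pcgf6, out of 20807 autosomal protein-coding genes of GENCODE mouse release M21. They were taken by name. Each was represented by the CGs of its annotated span and of the 2000 bp upstream, divided into promoter (the upstream part), exons of protein-coding transcripts and introns. The 10 genes held 6924 CGs, from 221 in Ring1 to 1947 in Kdm2b, which is 0.0340% of all autosomal CGs. On mm10 the PRC2 genes lie at chr6:47530139-47595341 (Ezh2), chr11:101191115-101226463 (Ezh1), chr7:89954654-89980983 (Eed), chr11:79993106-80034123 (Suz12), chr13:44729474-44921643 (Jarid2) and chr5:108065674-108109004 (Mtf2). The PRC1 genes lie at chr1:151458004-151500955 (Rnf2), chr17:34020792-34024680 (Ring1), chr5:122870665-122989823 (Kdm2b) and chr19:47033617-47050906 (Pcgf6). Suz12, Jarid2 and Mtf2 are on the plus strand and the others on the minus strand.

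Polycomb proteins keep developmental genes silent through the complexes PRC2 and PRC1. PRC2 methylates histone H3 through EZH2 or EZH1, which work only together with EED and SUZ12, and JARID2 and MTF2 help to bring it to chromatin. PRC1 ubiquitinates histone H2A through RNF2 or RING1. In its variant forms KDM2B, which binds unmethylated CG-rich DNA, or PCGF6 take part in finding the targets. In embryonic stem cells both complexes sit mainly at CG-rich promoters. What was measured here is the DNA modification of the genes that encode these proteins, not their expression and not the places where the proteins bind.

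DNA came from E14TG2a mouse embryonic stem cells grown on gelatin with LIF and fetal bovine serum, with no further treatment. In hmTOP-seq, the glucosyltransferase BGT puts an azide-bearing glucose on 5hmC, an oligonucleotide is attached to it, and sequencing starts next to the labelled site. Inputs of 500, 50 and 5 ng were each represented by 2 technical replicates, and each input had 2 control libraries made without BGT. In uTOP-seq, unmodified CGs (uCGs) were labelled in 300 ng of DNA with 3 replicates. Since the replicates are technical, the tests below measure the spread between libraries and not between cultures. Methylated CGs are read by neither method, so a CG without reads in either is methylated or was missed.

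Deposited read counts summed to 32502791 and 31918445 at 500 ng, to between 14884939 and 23027170 at the lower inputs, and to between 20120568 and 28412885 in uTOP-seq. The controls held 3409 to 10072 reads. Relative coverage is the reads per CG of a gene element divided by the reads per CG over all autosomal CGs of the same library, so that 1 is the genome mean. That mean was 1.58 and 1.55 reads per CG at 500 ng and 1.37, 1.11 and 0.972 in uTOP-seq. The 10 genes received 31749 reads in the 500-ng libraries together, and 8 reads in their 2 controls. In all 6 controls together they received 13 reads, and Ezh2, Eed, Suz12, Ring1 and Pcgf6 none. The promoters of the stem cell genes Pou5f1 and Nanog had a uTOP-seq relative coverage of 6.37 and 3.18, and those of the germline genes Dazl and Ddx4 had 0.704 and 0.813. Sox2 and Zfp42 were at 2.43 and 2.75, Esrrb at 1.25 and the germline gene Sycp3 at 1.47.

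Of the 10 genes, 8 started in CG-rich sequence, defined as a 1000-bp window around the transcription start site (TSS) in which G and C make up 50.0% or more and CGs reach 0.6 of the number expected from base composition. Across all genes 9510 met this. Jarid2, with 49.3% G and C, and Kdm2b, with 0.466 of the expected CGs, did not at their outermost annotated start. The sequences directly upstream of 3 of the 10 start sites are shown as examples of the contrast between both assays. Each has 250 bases of GRCm38 (mm10) on the strand of the gene, and capitals mark the CGs that were read in all 3 uTOP-seq replicates.
Ezh2, chr6:47595342-47595591, minus strand: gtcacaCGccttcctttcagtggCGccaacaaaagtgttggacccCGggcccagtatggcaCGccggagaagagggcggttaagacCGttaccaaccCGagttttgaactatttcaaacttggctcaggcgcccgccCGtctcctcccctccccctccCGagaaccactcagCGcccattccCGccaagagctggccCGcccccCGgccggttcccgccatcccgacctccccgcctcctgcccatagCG
Eed, chr7:89980984-89981233, minus strand: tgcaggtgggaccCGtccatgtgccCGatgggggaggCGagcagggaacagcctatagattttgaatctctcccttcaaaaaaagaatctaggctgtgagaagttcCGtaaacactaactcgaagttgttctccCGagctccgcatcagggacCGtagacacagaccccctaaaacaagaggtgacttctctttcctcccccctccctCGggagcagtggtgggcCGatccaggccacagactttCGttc
Mtf2, chr5:108065424-108065673, plus strand: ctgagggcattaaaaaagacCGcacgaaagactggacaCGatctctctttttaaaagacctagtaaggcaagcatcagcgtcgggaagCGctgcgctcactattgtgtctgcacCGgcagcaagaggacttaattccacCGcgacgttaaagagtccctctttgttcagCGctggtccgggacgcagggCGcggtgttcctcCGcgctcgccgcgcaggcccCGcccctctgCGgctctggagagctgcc
In the Ezh2 sequence 13 of 21 CGs were read in all 3 uTOP-seq replicates, which placed 126, 86 and 57 reads there, while both 500-ng libraries placed 0. In the Eed sequence 9 of 11 CGs were read, with 81, 65 and 57 uTOP-seq reads against 1 and 0 reads at 500 ng. In the Mtf2 sequence 10 of 23 CGs were read, with 124, 66 and 61 uTOP-seq reads against 0 and 1. None of these CGs had a read in both 500-ng replicates. Genes with a CG-rich start had the same contrast in the 250 bp upstream. Their pooled relative coverage there was 0.140 at 500 ng and 2.24 in uTOP-seq, against 0.0557 and 2.73 for the 10 genes.

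At the TSS the 5hmC signal did not exceed 0.200 reads per CG in 8 of the 10 genes. Within 500 bp on each side of the outermost start, Suz12, a core subunit of PRC2, had 0.00909 and 0 reads per CG in the 500-ng replicates over 110 CGs. Ezh2, a catalytic subunit, had 0.0108 and 0 over 93 CGs, and Mtf2 had 0 and 0.0182 over 55 CGs. Ring1, Pcgf6, Rnf2 and Eed lay between 0.0196 and 0.0962 in either replicate, and Ezh1 had 0.171 and 0.200. Jarid2 with 0.872 and 0.718 and Kdm2b with 0.688 and 0.219 were higher than the other 8 in both replicates. The median relative coverage of the 10 genes here was 0.0416, against 0.199 over all genes and 0.0535 over genes with a CG-rich start. Among genes with a CG-rich start the 8 genes ranged from percentile 7.01 (Suz12) to 67.5 (Ezh1).

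Unmodified CGs were read at the same starts in every gene. In uTOP-seq the window of Mtf2 had 5.13, 3.33 and 3.55 reads per CG and that of Jarid2 had 4.51, 4.44 and 3.92. Ezh2 had 3.02, 2.62 and 2.17. Rnf2, the main ubiquitin ligase of PRC1, was lowest with 1.39, 1.07 and 1.04, at percentile 19.4 of all genes and 7.68 of genes with a CG-rich start. As relative coverage the 10 genes ranged from 1.01 to 3.77 with a median of 2.11, against 2.13 over all genes.

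**Figure D1:**
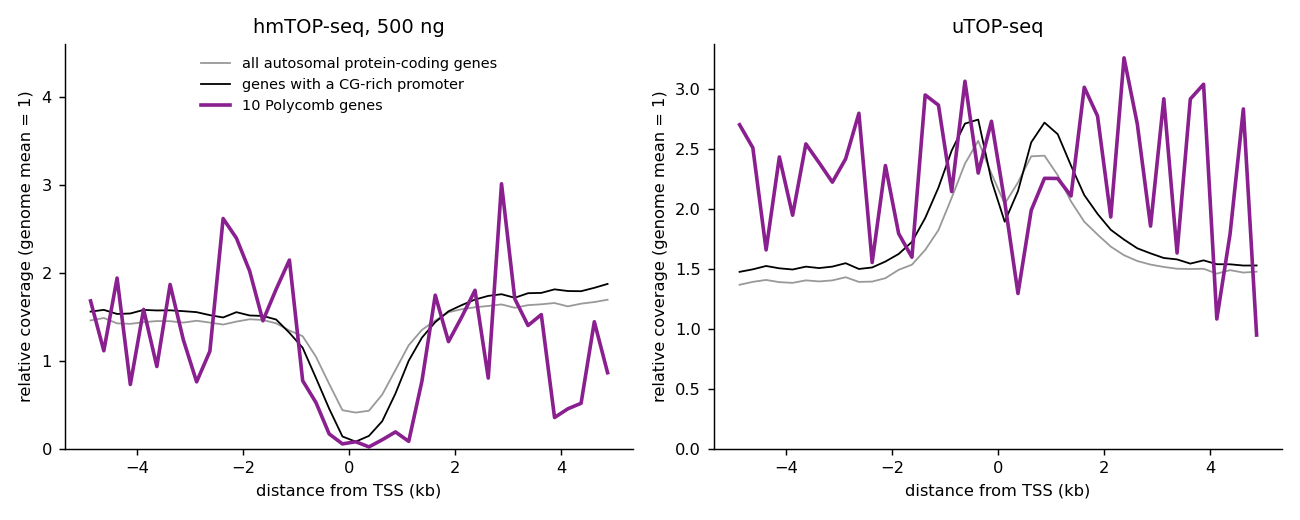
Relative coverage in 250-bp bins up to 5000 bp on each side of the outermost TSS, for hmTOP-seq at 500 ng (left) and uTOP-seq (right), pooled over the 10 Polycomb genes (purple), genes with a CG-rich start (black) and all autosomal protein-coding genes (grey). Between 250 and 500 bp after the start the Polycomb genes fell to 0.0216 at 500 ng, where uTOP-seq was at 1.30.

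The stretch around each start without any CG read in both 500-ng replicates differed in length between the genes. It was longest in Ezh2, with 10970 bp and 224 CGs, of which 9941 bp lay downstream of the outermost start. Eed had 5837 bp with 173 CGs, Suz12 had 4821 bp with 184 CGs, and Mtf2 had 4476 bp with 81 CGs. Pcgf6 had 2432 bp, Rnf2 2151 bp, Kdm2b 1649 bp, Ring1 1148 bp, Ezh1 745 bp and Jarid2 541 bp. The median of the 10 was 2291.5 bp, against 1476.5 bp over genes with a CG-rich start, whose middle 50.0% ran from 872 to 2348 bp. Ezh2, Eed, Suz12, Mtf2 and Pcgf6 were above that range, and Ezh1 and Jarid2 below it. In the Ezh2 stretch 34.8% of CGs were read in all 3 uTOP-seq replicates, and 46.8% in that of Eed.

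Jarid2 and Kdm2b have several annotated starts, and the 5hmC signal differed between them. In Jarid2, a stretch of 5929 bp with 304 CGs begins after the outermost start and holds 6 annotated starts of protein-coding transcripts. The transcript Jarid2-201 begins 1349 bp inside the gene, and the window on it had 0 and 0.0202 reads per CG at 500 ng over 99 CGs, with 2.70, 2.32 and 1.84 in uTOP-seq. The start of Jarid2-211, which is 111217 bp inside the gene, had 15.95 and 14.6 reads per CG over 20 CGs at 500 ng, and 5.70, 5.20 and 4.05 in uTOP-seq. In Kdm2b, the start of Kdm2b-201 is 89468 bp inside the gene and had 0.0769 and 0.0385 reads per CG over 130 CGs, with 1.29, 0.854 and 0.892 in uTOP-seq. The start of Kdm2b-217, further downstream, had 8.92 and 7.33 over 24 CGs. Internal starts of one gene were thus both among the lowest and the highest windows of the set.

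The promoter was then compared with the gene body, to ask whether 5hmCGs and uCGs are placed differently within a gene. At 500 ng the promoter of Ezh2 had 0.0244 and 0.0976 reads per CG and its body 0.615 and 0.630. Eed had 0.233 and 0.651 in the promoter against 1.57 and 1.38 in the body. Jarid2 had 0.533 and 0.467 against 2.91 and 2.86, and Kdm2b had 0.971 and 0.886 against 3.17 and 2.99. Ring1, the paralog of Rnf2, had 1.22 and 0.826 against 4.98 and 5.43. In these 5 genes, given as examples, both replicates of the promoter were below both of the body. The share of all genes with such an order was not counted. Ezh1 came closest to overlap, with 0.700 and 1.75 against 1.97 and 2.02. Pcgf6 went the other way, with 1.71 and 2.26 in the promoter and 1.34 and 1.30 in the body.

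With the quasi-likelihood test of edgeR (adjusted p below 0.05 over 19161 genes), promoter coverage at 500 ng was lower than the body in 9 of the 10 genes, where 47.5% of all genes tested were lower, and higher in 1, Pcgf6, where 19.9% were higher. The log2 ratio ran from -3.35 ± 0.53 (SE) in Ezh2 (adjusted p = 7.93e-05) to -0.74 ± 0.26 in Ezh1 (adjusted p = 0.0237), and was 0.58 ± 0.24 in Pcgf6 (adjusted p = 0.0438). The median over the 10 genes was -1.74, against -0.63 over all genes tested. Genes with a CG-rich start had a median relative coverage at 500 ng of 0.495 in promoters and 1.07 in bodies. It was 0.426 and 1.09 for the 10 genes, and 0.610 and 1.01 for all genes. The share of genes with a CG-rich start that were called was not counted, here or in the promoter comparisons below. When the promoter was taken as 500 bp on each side of the TSS, all 10 genes were lower, Pcgf6 included at -4.76, where 64.5% of all genes were lower and 16.1% higher. With DESeq2 Pcgf6 at 0.57 (adjusted p = 0.262) and Ezh1 at -0.81 (adjusted p = 0.0870) did not pass. The higher value of Pcgf6 with the upstream definition thus came from CGs more than 500 bp upstream of its start.

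In uTOP-seq the promoter of Kdm2b had 4.91, 4.83 and 4.46 reads per CG against 2.23, 1.91 and 1.70 in the body, and it stood at percentile 98.8 of all promoters. Ezh2 had 5.29, 3.83 and 2.63 against 1.42, 1.26 and 1.14, and Suz12 had 2.92, 2.89 and 2.08 against 1.27, 1.21 and 1.05. Promoter and body did not overlap in these 3 genes, which are examples, and the share of all genes without overlap was not counted. Rnf2 had 2.02, 1.76 and 1.48 in the promoter and 1.90, 1.53 and 1.33 in the body, which overlap. By the edgeR test 6 of the 10 promoters were higher than the body in uTOP-seq (Ezh2, Ezh1, Eed, Suz12, Jarid2 and Kdm2b), where 47.8% of all genes tested were higher, and none was lower, where 13.8% were, with 0 lower also at an unadjusted p below 0.05 and with DESeq2. The log2 ratio ran from 0.45 ± 0.15 in Jarid2 to 1.59 ± 0.13 in Ezh2. With 500 bp on each side of the TSS as promoter, 5 were higher and 2 lower, Rnf2 at -0.55 and Ring1 at -0.30, where 59.9% and 12.1% of all genes were.

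The difference of the promoter to body ratio between hmTOP-seq and uTOP-seq, tested as an interaction, was below 0 in 9 of the 10 genes, where 50% of all genes tested were lower and 13.3% higher. It was -4.93 ± 0.46 in Ezh2 (edgeR, adjusted p = 1.09e-13), -3.02 ± 0.21 in Kdm2b (adjusted p = 6.47e-18) and -2.98 ± 0.35 in Jarid2 (adjusted p = 1.10e-10). In Pcgf6 it was 0.42 ± 0.29 and did not pass (adjusted p = 0.202). With the window on the TSS all 10 passed as lower, where 69.1% of all genes were lower and 9.8% higher.

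**Figure D2:**
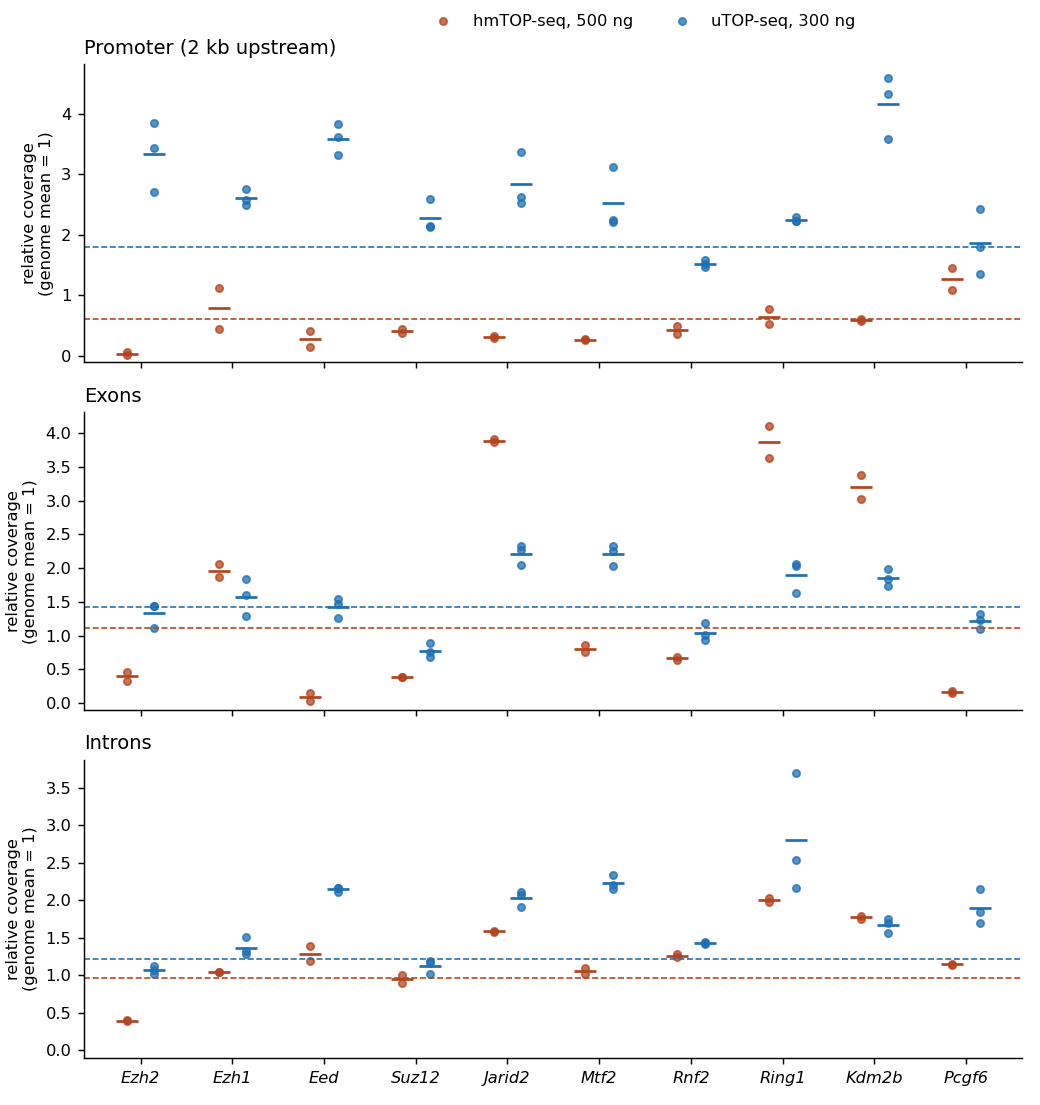
Relative coverage of promoters, exons and introns of the 10 genes in the 2 hmTOP-seq libraries at 500 ng (red points) and the 3 uTOP-seq libraries (blue points), with a short bar at the mean and dashed lines in the same colours at the median of all autosomal protein-coding genes. Exons of Jarid2, Ring1 and Kdm2b stand highest at 500 ng, with means of 3.89, 3.87 and 3.21, and the promoter means at 500 ng are below 1 in every gene but Pcgf6.

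Within PRC2, the body of Ezh2 had the lowest 5hmC coverage of the set, with 0.615 and 0.630 reads per CG over 514 CGs at 500 ng, or percentile 21.3 of all genes. Its paralog Ezh1 had 1.97 and 2.02 and stood at percentile 60.3. Eed (1.57 and 1.38), which reads the methyl mark, and Suz12 (1.19 and 1.29) lay near or below the median of all genes of 1.58. Mtf2 had 1.65 and 1.48. Jarid2, the largest gene with 192170 bp, had 2.91 and 2.86 over 1811 CGs at percentile 76.6. In increasing order Ezh2, Suz12, Eed, Mtf2, Ezh1 and Jarid2 did not overlap between replicates, except for Eed and Mtf2. Pcgf6, with 1.34 and 1.30, lay between Suz12 and Eed without touching Suz12.

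Within PRC1, the body of Ring1 was highest of all 10 genes with 4.98 and 5.43 reads per CG over 129 CGs, at percentile 95.9 of all genes and 98.2 of genes with a CG-rich start. Rnf2 had 1.84 and 1.85 over 487 CGs, at percentile 56.8. Kdm2b had 3.17 and 2.99 over 1912 CGs, at percentile 79.4. In uTOP-seq the same bodies differed less. Ring1 had 3.02, 2.30 and 2.16, Rnf2 1.90, 1.53 and 1.33, and Kdm2b 2.23, 1.91 and 1.70. The highest uTOP-seq body was that of Mtf2 with 3.06, 2.42 and 2.21, and the lowest that of Suz12 with 1.27, 1.21 and 1.05.

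Single CGs were then classed by the assays that read them. A CG with a read in both 500-ng replicates is called a 5hmCG here, and one with a read in all 3 uTOP-seq replicates a uCG. Kdm2b had 778 5hmCGs among 1947 CGs (40.0%) and Jarid2 680 among 1826 (37.2%), while Ezh2 had 52 among 555 (9.37%). In exons the share was 53.8% in Jarid2, 52.2% in Ring1 and 51.5% in Kdm2b, against 34.5% of exonic CGs over all genes, and 2.22% in Eed and 5.63% in Pcgf6. Promoters had 2.44% in Ezh2 and 4.65% in Eed up to 32.3% in Pcgf6, against 20.9% over all genes. CGs that were both a 5hmCG and a uCG made up 19.3% of Jarid2 and 2.16% of Ezh2. CGs read in neither assay at these inputs made up from 9.82% in Mtf2 to 23.2% in Ezh2. Over all genes the shares were 16.8% in promoters, 15.7% in exons and 23.5% in introns. The classes ask for a read in every replicate, so a CG outside both can still have reads in some libraries, and a CG without reads is not shown to lack the mark at this depth.

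Exons were compared with introns to ask where in the gene body the marks lie. At 500 ng the exons of Jarid2 had 6.10 and 6.06 reads per CG against 2.50 and 2.45 in its introns. Ring1 had 5.73 and 6.36 against 3.11 and 3.14, Kdm2b 5.34 and 4.69 against 2.82 and 2.72, and Ezh1 2.95 and 3.19 against 1.64 and 1.62. In these 4 genes the exons were above the introns in both replicates, and the share of all genes with such an order was not counted. The reverse was seen in Eed, with 0.0556 and 0.244 against 2.19 and 1.84, and in Pcgf6, with 0.282 and 0.225 against 1.80 and 1.78. Suz12 had 0.614 and 0.604 against 1.41 and 1.55, and Rnf2 1.01 and 1.06 against 1.97 and 1.98. Exons and introns of Ezh2 overlapped, with 0.524 and 0.726 against 0.633 and 0.612.

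By the edgeR test over 17957 genes, 4 of the 10 genes were higher in exons (Ezh1, Jarid2, Ring1 and Kdm2b), where 46.9% of all genes tested were, and 4 were lower (Eed, Suz12, Rnf2 and Pcgf6), where 23.6% were. The log2 ratio was 1.30 ± 0.06 in Jarid2 (adjusted p = 1.58e-101) and 0.86 ± 0.06 in Kdm2b (adjusted p = 1.08e-47). It was -3.74 ± 0.25 in Eed (adjusted p = 7.33e-50) and -2.82 ± 0.26 in Pcgf6 (adjusted p = 3.78e-26). Ezh2 at 0.00 ± 0.22 and Mtf2 at -0.38 ± 0.19 (adjusted p = 0.0638) did not pass. The median over the 10 genes was -0.19, against 0.32 over all genes tested. The first exon lies in the stretch around the TSS. When CGs within 1000 bp of any annotated start were left out, a choice made after seeing the data, the same 4 genes were higher (54.7% of all genes), and only Eed at -2.10 and Pcgf6 at -1.36 remained lower (14.4% of all genes). Suz12 was then at -0.28 and Rnf2 at -0.26, with adjusted p of 0.187 and 0.154. The exons of Eed and Pcgf6 held 22 CGs each outside these windows.

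In uTOP-seq the log2 ratios were smaller in size in every gene but Ezh2. Exons of Ezh2 had 1.54, 1.61 and 1.40 reads per CG against 1.40, 1.20 and 1.09 in introns, and those of Eed 2.01, 1.40 and 1.50 against 2.89, 2.41 and 2.11. By the edgeR test 2 genes were higher in exons, Ezh2 at 0.31 ± 0.13 and Kdm2b at 0.15 ± 0.07 (adjusted p = 0.0496), where 39.4% of all genes tested were, and 5 were lower (Eed, Suz12, Rnf2, Ring1 and Pcgf6), where 16.4% were. The lowest was Pcgf6 at -0.64 ± 0.14. With DESeq2 neither Ezh2 (adjusted p = 0.119) nor Kdm2b (adjusted p = 0.147) passed, and neither passed without uTOP-seq replicate 2. Without replicate 1 Kdm2b was at 0.05, and without replicate 3 Ezh2 had an adjusted p of 0.119. The call of Ring1 was also lost with DESeq2 (adjusted p = 0.0605). Without CGs near a start, Ezh1 at 0.55 and Kdm2b at 0.27 were higher (24.9% of all genes) and Eed, Mtf2, Rnf2 and Pcgf6 were lower (14.5%). Ezh2 was then at -0.56 and did not pass (adjusted p = 0.0538).

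The interaction asks whether the exon to intron ratio differs between 5hmCGs and uCGs. It was above 0 in 4 genes, Ring1 at 1.47 ± 0.21, Jarid2 at 1.17 ± 0.09, Kdm2b at 0.70 ± 0.09 and Ezh1 at 0.70 ± 0.17, where 32.9% of all genes tested were higher. It was below 0 in 4 genes, Eed at -3.14 ± 0.29, Pcgf6 at -2.17 ± 0.31, Suz12 at -0.75 ± 0.25 and Rnf2 at -0.48 ± 0.22 (edgeR, adjusted p = 0.0439), where 24.9% were lower. Without 500-ng replicate 2, Suz12 at -0.67 and Rnf2 at -0.51 did not pass (adjusted p = 0.0715 and 0.121). Without CGs near a start it was higher in Jarid2, Ring1 and Kdm2b (38.9% of all genes) and lower in 1 gene, Eed at -1.37 (7.65% of all genes). Ezh1 at 0.35 then had an adjusted p of 0.112. Reads at a CG in these comparisons come from the same CGs in every library, so the errors do not cover the spread between CGs of a gene.

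**Figure D3:**
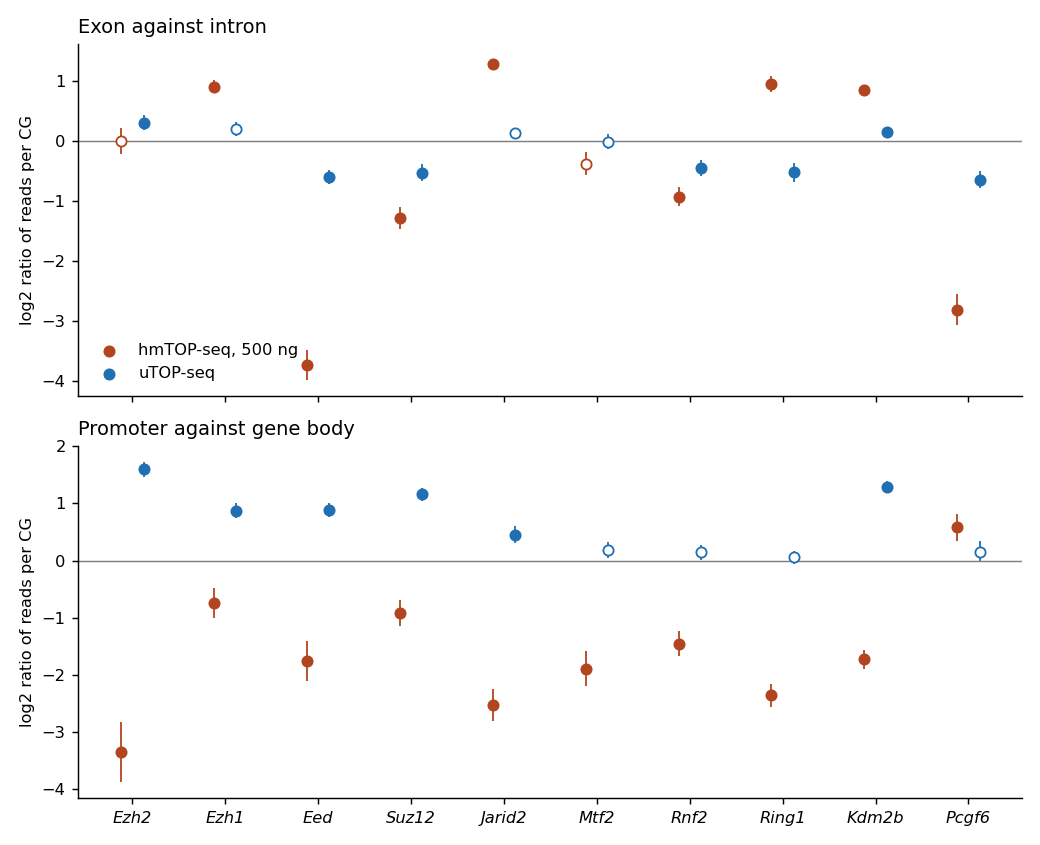
Log2 ratio of reads per CG of exons against introns (top) and of the promoter against the gene body (bottom) in hmTOP-seq at 500 ng (red) and uTOP-seq (blue), with bars of 1 SE from edgeR and points filled where the adjusted p is below 0.05. Eed and Pcgf6 lie lowest in the top panel at 500 ng, with -3.74 and -2.82, and in the bottom panel 9 red points lie below 0.

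Along the gene, divided into 10 equal parts from the outermost start to the end, the first part had a relative coverage at 500 ng of 0.0507 or less in Ezh2, Eed, Suz12, Ring1 and Pcgf6. In Eed the ninth part, with 18 CGs, stood out with 5.13, next to 0.772 in the eighth and 1.30 in the last. It was also high in uTOP-seq, with 4.07 next to 0.771 and 1.55. The last part was the highest in Jarid2 with 3.82, in Kdm2b with 4.03 and in Ezh1 with 2.61. In Ring1 parts 4 to 8 ranged from 4.75 to 7.49 and the last part was at 0.414.

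For each gene, the CG with the most reads in 500-ng replicate 1 is shown with its surroundings. The 10 sites show what kind of sequence the highest counts of that library lay in. Sequences are 62 bases of the plus strand of GRCm38 (30 bases where an annotated untranslated part was near), and capitals mark the CG.
Ezh2, chr6:47548159-47548220: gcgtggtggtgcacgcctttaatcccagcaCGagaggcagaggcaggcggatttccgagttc
Ezh1, chr11:101208124-101208185: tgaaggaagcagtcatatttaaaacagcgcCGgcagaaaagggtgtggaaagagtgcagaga
Eed, chr7:89958026-89958087: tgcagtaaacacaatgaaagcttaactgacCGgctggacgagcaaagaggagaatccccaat
Suz12, chr11:79998750-79998811: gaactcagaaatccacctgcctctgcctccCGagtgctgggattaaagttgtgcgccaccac
Jarid2, chr13:44840812-44840841: ggatggctgctccaCGggtctgtcaggtgc
Mtf2, chr5:108104462-108104491: agatgtggacctcaCGggtgcttccagtgc
Rnf2, chr1:151467438-151467499: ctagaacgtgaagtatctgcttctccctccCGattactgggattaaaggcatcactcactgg
Ring1, chr17:34023063-34023124: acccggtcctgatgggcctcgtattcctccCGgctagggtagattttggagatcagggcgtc
Kdm2b, chr5:122950265-122950326: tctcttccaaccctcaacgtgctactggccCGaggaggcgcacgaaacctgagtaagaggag
Pcgf6, chr19:47047397-47047458: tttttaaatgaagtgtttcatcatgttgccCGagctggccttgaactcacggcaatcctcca
Replicate 2, which did not choose the sites, had fewer reads than replicate 1 at all 10. The Ezh2 site, in an intron, had 26 reads in replicate 1 and 19 in replicate 2, the highest of 555 CGs there too, and 13 and 5 at 50 ng. The Mtf2 site, in coding sequence, had 44 and 22, again the highest of its gene in replicate 2, and 43 and 6 at 50 ng. The Kdm2b site, in an intron, had 63 and 40 at 500 ng and 12 and 22 at 50 ng. The Jarid2 site, in coding sequence 111352 bp after the start, had 57 and 30 reads and 16, 22 and 9 in uTOP-seq. The Suz12 site had 34 and 11 reads and rank 10 in replicate 2. In replicate 2 the rank of the 10 sites ran from 1 to 10 within their genes. In 50-ng replicate 1 it ran from 1 to 82, with Kdm2b at 82, Ezh1 at 24 and Jarid2 at 20. The sites are thus not shown to be the strongest of their genes in every library. At 5 ng the same CGs ranged from 0 to 90 reads, above 500-ng replicate 1 in at least 1 library for Eed, Rnf2 and Pcgf6 and equal to it for Suz12, and the Ring1 site, in coding sequence, had 0 in both replicates. The Ezh1, Jarid2, Mtf2 and Ring1 sites were in coding sequence and the other 6 in introns. The 10% of CGs with the most reads held from 53.0% of the 500-ng reads in Kdm2b to 75.7% in Eed.

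The sites of Ezh2, Suz12, Rnf2 and Pcgf6 lay in repeats, that is, in lower-case (soft-masked) sequence of the reference. In introns, repeat CGs had more 500-ng reads per CG than other CGs in both replicates in Ezh2, Eed, Suz12, Mtf2, Rnf2 and Pcgf6, and in Ezh1 by a small margin (1.64 and 1.66 against 1.64 and 1.61). In Suz12 they had 2.09 and 2.37 against 0.750 and 0.765, and in Mtf2 2.58 and 2.27 against 1.24 and 1.16. Pooled over the intronic CGs of all genes the order was the reverse, with 1.08 and 1.06 in repeats against 1.95 and 1.92 elsewhere. Kdm2b followed it with 1.79 and 1.88 against 3.06 and 2.91, and Ring1 with 0.667 and 1.67 against 3.58 and 3.42. Jarid2 differed between replicates, with 2.61 and 2.37 against 2.47 and 2.47. The share of single genes with more reads in repeats was not counted, so the pooled order is not a matching background for single genes. CGs near a start were not left out of this comparison. In Ezh2, Eed, Suz12, Mtf2, Rnf2 and Pcgf6 the first part of the gene had low relative coverage at 500 ng. It ran from 0.00403 in Pcgf6 to 0.359 in Rnf2, and was 0 in Ring1 and 1.13 in Kdm2b. Whether CGs near a start set the order between repeats and other CGs was not tested. In uTOP-seq, repeat CGs of Suz12 had 0.646, 0.762 and 0.777 reads per CG against 2.10, 1.79 and 1.53 elsewhere. Repeats made up 48.9% of the intronic CGs of Suz12 and 18.5% of those of Kdm2b, against 19.6% over all genes. Reads in repeats can be misplaced between copies, which was not tested.

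Neighbouring genes share some of these CGs. Kdm2b overlaps Rnf34 and Rnf2 overlaps Trmt1l at their ends, Mtf2 overlaps Tmed5, and the transcript E230029C05Rik on the other strand covers the start of Eed and its whole promoter, the sequence shown above included. The start of Kdm2b and its whole promoter are likewise covered by A930024E05Rik on the other strand and by Gm44574 on the same strand. The promoter of Ring1 overlaps the end of the protein-coding gene H2-Ke6. The hmTOP-seq counts merge both strands, so such CGs cannot be assigned to one of the genes. In uTOP-seq, 47.0% to 56.8% of the reads of each gene were on its sense strand, with Ring1 highest at 57.7%, 56.5% and 56.1% in the 3 replicates.

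The inputs were compared to ask whether the genes keep their coverage with less DNA. The relative coverage of Jarid2 with its upstream part was 1.84 in both replicates at 500 ng, 1.91 and 1.99 with 50 ng, and 2.25 and 1.90 with 5 ng. Ring1 had 2.16 and 2.27, then 1.63 and 1.84, then 1.46 and 1.42, and the 3 inputs did not overlap. Mtf2 had 0.961 and 0.879, then 1.14 and 1.01, then 0.564 and 2.78, so that its 5-ng replicates lay on both sides of all others. Ezh2 was lowest of the 10 genes in each of the 6 libraries, with 0.362 and 0.381 at 500 ng and 0.354 and 0.216 at 5 ng.

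With edgeR's quasi-likelihood test none of the 10 genes passed at 50 ng against 500 ng, where 0% of 18233 genes tested were higher and 0% lower, and none passed at 5 ng, where 0% of 17149 were higher and 0% lower. At an unadjusted p below 0.05 there were 2207 and 2051 genes, with Jarid2 and Ring1 among them at 50 ng and Eed and Ring1 at 5 ng, and DESeq2 called 21 and 1035. Among the 10 genes DESeq2 called 1, Ring1 at 5 ng, with a log2 ratio of -0.57 (adjusted p = 0.0411), where edgeR gave -0.58 ± 0.16 (adjusted p = 0.377). At 50 ng the edgeR ratio of Ring1 was -0.34 ± 0.11 (adjusted p = 0.328). Mtf2 had the widest error at 5 ng, 0.91 ± 0.73 (adjusted p = 0.654). The median over the 10 genes was 0.12 at 50 ng and 0.22 at 5 ng, against 0.00 and 0.01 over all genes tested.

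Fewer CGs carried the reads at low input. In Kdm2b 33.3% to 33.8% of CGs had a read at 50 ng and 10.1% and 10.7% at 5 ng. In Ezh2 16 and 13 CGs of 555 had a read at 5 ng. The single CG with the most reads held 30.8% and 33.3% of all reads of Pcgf6 in the 5-ng replicates, and 35.3% and 17.2% of those of Mtf2. Coverage of Ezh2, Pcgf6 and Mtf2 at 5 ng thus rested on a few CGs.

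**Figure D4:**
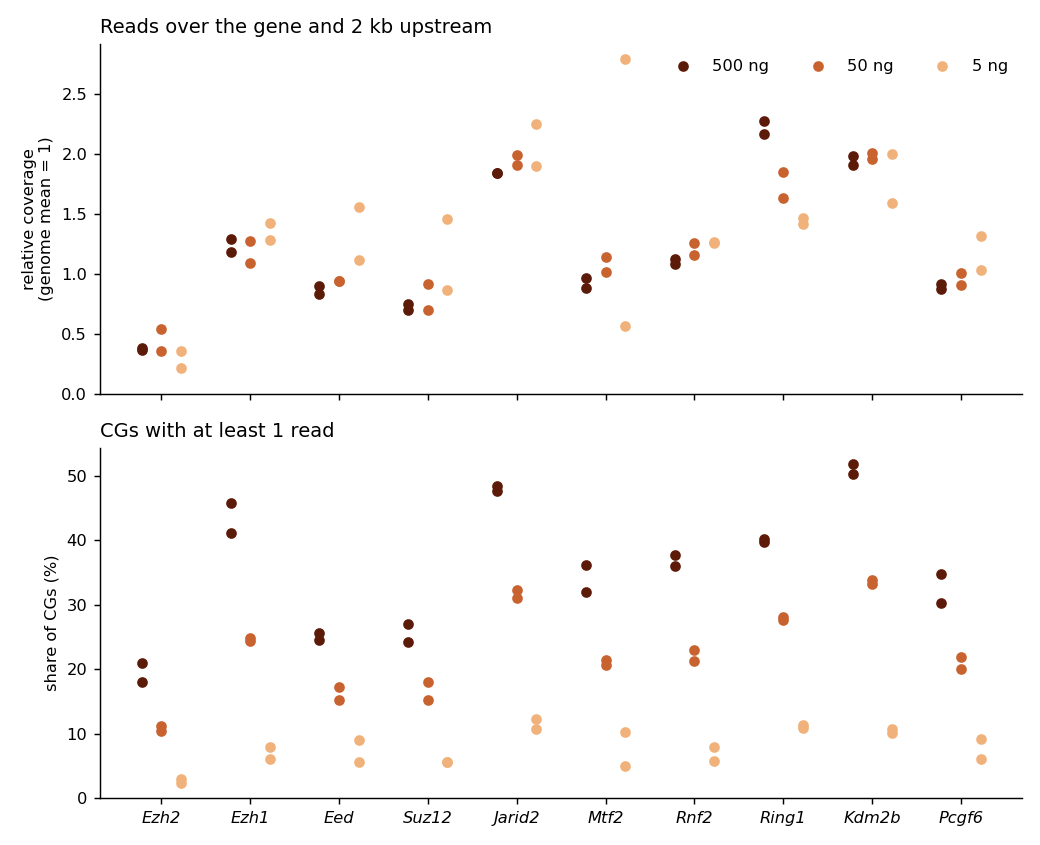
Relative coverage of each gene with 2000 bp upstream (top) and share of its CGs with at least 1 read (bottom) in the 2 technical replicates at 500, 50 and 5 ng (dark to light). Ring1 lies at 2.16 and 2.27 with 500 ng and at 1.46 and 1.42 with 5 ng, and the 5-ng replicates of Mtf2 lie at 0.564 and 2.78.

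A further 33 Polycomb genes were described by counts: 6 of PRC2 and its accessory proteins, 21 of PRC1 and 6 that encode opposing enzymes. In the gene body at 500 ng the lowest were Epop, a PRC2 accessory protein, with 0.0969 and 0.0765 reads per CG, and Bmi1, a PRC1 subunit, with 0.355 and 0.393. The highest were Cbx2 with 5.18 and 4.93 and Cbx7 with 4.73 and 4.65, both chromobox subunits of PRC1. In uTOP-seq the promoters of Bmi1 (0.858, 1.12 and 0.700) and Scmh1 (1.80, 1.31 and 0.877) were lowest and those of Epop (5.64, 4.21 and 4.30) and Aebp2 (5.95, 6.91 and 4.23) highest. Their median relative coverage of the body at 500 ng was 0.988, against 1.09 for the 10 genes and 1.01 for all genes. Of these genes 20 of 32 tested were higher in exons than introns at 500 ng and 9 lower, where 46.9% and 23.6% of all genes were, with a median log2 ratio of 0.56. Promoter coverage at 500 ng was lower than the body in 18 of 33 and higher in 8, where 47.5% and 19.9% of all genes were. In uTOP-seq 22 promoters were higher than the body and 3 lower, where 47.8% and 13.8% of all genes were.

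**Figure D5:**
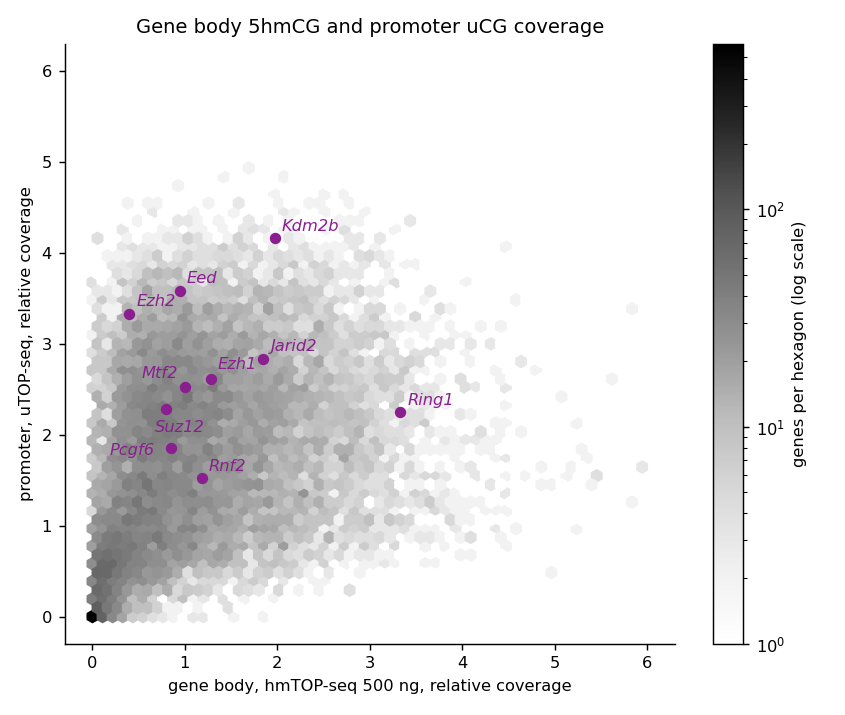
Relative coverage of the gene body in hmTOP-seq at 500 ng (horizontal) against that of the promoter in uTOP-seq (vertical), as means of replicates, for autosomal protein-coding genes with at least 5 CGs in both (grey hexagons, log scale) and the 10 Polycomb genes (purple), leaving out 66 of 20162 genes beyond the axis limit of 6. Ring1 lies furthest right at 3.33, Kdm2b highest at 4.17, and Ezh2 furthest left at 0.398.

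Over promoters, exons and introns in both assays, 6 values in all, the genes nearest to the median of the 10 among 18525 genes were Nufip2, Rab11b and Dusp11, at Euclidean distances of 0.239, 0.297 and 0.409 on the log2 scale. In Nufip2 the relative coverage at 500 ng was 0.449 in the promoter, 0.657 in exons and 1.08 in introns, where the medians of the 10 genes were 0.426, 0.737 and 1.20. In uTOP-seq it was 2.66, 1.56 and 1.71, against 2.57, 1.50 and 1.78.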

How the data were processed

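Read counts per CG were used as the authors deposited them, for mouse genome build mm10: counts with both strands merged in 12 hmTOP-seq libraries (6 labelled and 6 controls) and counts by strand, summed here, in 3 uTOP-seq libraries. The aligner is not given in the sources used here. All 15 sample columns were used and 0 were left out. Positions counted from 0 were converted to count from 1.

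Reads were summed over gene elements of GENCODE M21 on 19 autosomes. Gene starts are the outermost annotated TSS. Groups were taken from the GEO labels. Inputs were compared with edgeR 4.0.16 (R 4.3.3), with TMM factors and the quasi-likelihood test, where no library had fewer than 10 reads for the gene. Elements were compared within libraries with the library as a term and an offset for the library total and the number of CGs, for elements with at least 5 CGs. P-values were adjusted by Benjamini-Hochberg over all genes tested, with a threshold of 0.05. Errors are SEs of the log2 ratio. Fits were checked on simulated counts.

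Alternatives were DESeq2 1.42.0, no filter, library totals without TMM factors, at most 20 reads per CG, only CGs read in every replicate, other promoter and exon definitions, lower inputs, a replicate block and leaving out each library. Leaving out CGs within 1000 bp of a TSS was added after seeing the data. The 10 genes and all lists were chosen with earlier results of these data known. All 10 are named, and of the other Polycomb genes those at either end of the 500-ng body and uTOP-seq promoter levels. Likeness was measured on log2(relative coverage + 0.05). The paper removed PCR duplicates from hmTOP-seq data, judged by where reads start and how long they are. Reads that remain may still not be independent molecules, and library totals set only the counting precision.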

Additional observations from a re-analysis of the deposited data

Results flagged for a closer look

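In 7 comparisons the ratio within a gene had opposite signs in hmTOP-seq at 500 ng and in uTOP-seq, and both ratios as well as their difference passed the test of edgeR with Benjamini-Hochberg adjustment. Exons against introns of Ring1 had a log2 ratio of 0.95 at 500 ng and -0.52 in uTOP-seq, a difference of 1.47 ± 0.21 (SE, adjusted p = 1.42e-11). The other 6 concerned the promoter against the gene body, which passed as lower at 500 ng and as higher in uTOP-seq. The difference was -4.93 in Ezh2, -3.02 in Kdm2b, -2.98 in Jarid2, -2.62 in Eed, -2.07 in Suz12 and -1.61 in Ezh1. Mtf2, Rnf2 and Ring1 also had opposite signs and a difference that passed, but their uTOP-seq ratios of 0.19, 0.15 and 0.06 did not pass. Of all genes tested, 50% had a promoter difference below 0 by the same test, and 32.9% an exon difference above 0. The share of all genes that met every condition together was not counted. The 7 comparisons are thus not shown to be unusual. No group held more than 3 libraries, so single libraries were not tested as outliers.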

How the results depend on the processing

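Of 770 values of the 10 genes under the alternatives, 651 counted as unchanged. These kept their direction and side of the threshold or, with no test, moved by less than the SE of the main fit. Of the others, 48 were no longer past the threshold, 27 newly passed it, 29 changed sign and 15 with no test moved by more. The cause was not tested where none is given.

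For 50 ng against 500 ng, where edgeR called 0 genes, DESeq2 called 21, a cap of 20 reads per CG 1 and CGs read in both 500-ng replicates 1. For 5 ng, DESeq2 called 1035, 1 of them among the 10 genes as lower, and the cap 1. Leaving out 1 library gave 1 to 2353 genes at 50 ng, with 0 to 2 of the 10 genes higher and 0 to 1 lower, and 0 to 9884 at 5 ng, with 0 to 6 higher and 0 to 3 lower. The high counts came without either library of the lower input, where the lone library is assumed to vary like those at 500 ng. Replicate numbers did not pair the libraries (correlations of 0.016, -0.0068 and -0.012), and the replicate block gave 101 genes at 50 ng and 1 at 5 ng.

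Against 12669 genes at 500 ng, exons differed from introns in 7061 of 17801 with the 50-ng and 881 of 17260 with the 5-ng libraries. At 50 ng 4 of the 10 genes were higher and 3 lower, where 4846 and 2215 of all genes were. At 5 ng 1 of the 10 genes was higher and 1 lower, where 597 and 284 of all genes were. Against 12906, promoters differed from the body in 6903 of 18981 genes at 50 ng and 151 of 18368 at 5 ng. Of the 10 genes 0 were higher at either input, where 1928 and 18 of all genes were. At 50 ng 6 of the 10 genes were lower and at 5 ng 1, where 4975 and 133 of all genes were. Without CGs near a TSS, exons differed in 6669 genes in uTOP-seq, 2 of the 10 genes were lower at 500 ng and 1 in the interaction. In uTOP-seq, 0 of the 10 genes were higher in exons with DESeq2, 1 without the filter and 0 to 1 without 1 library. In the interaction 2 to 4 were lower without 1 library. For promoters at 500 ng 0 were higher with DESeq2 or the window on the TSS, and in uTOP-seq 2 were lower with that window.

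The median relative coverage at 500 ng was 0.349 for promoters with CGs read in every replicate and 0.0416 for the TSS window. For exons it was 0.695 with the cap, 0.783 with all transcript types and 1.35 without CGs near a TSS. For introns it was 1.11 and 1.45 with the latter choices and 1.17 to 1.20 without 1 library. In uTOP-seq it was 4.08 for promoters with CGs read in every replicate, 2.11 for the TSS window and 2.52 to 2.65 without 1 library, and 2.28 for introns with CGs read in every replicate, 1.60 without CGs near a TSS and 1.70 to 1.82 without 1 library.

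Signs changed as follows, on the log2 scale. With CGs read in every replicate, Ezh2 was at -0.13 at 50 ng, Kdm2b at 0.000657 at 5 ng and Mtf2 at 0.13 for exons in uTOP-seq. Without 50-ng replicate 1, Ezh2 was at -0.055 (0.54 without replicate 2) and Ezh1 at 0.051, without 500-ng replicate 2 Ezh1 was at 0.01, and without 50-ng replicate 2 Suz12 was at -0.045 (0.36 without replicate 1). Without 5-ng replicate 2 Mtf2 was at -0.67, against 1.63 without replicate 1, and Kdm2b was at 0.074 without replicate 1 and -0.26 without replicate 2. For exons at 500 ng, Ezh2 was at -0.00465 with DESeq2, -0.67 with 50 ng and -0.45 with 5 ng, Ring1 at -0.10 with 5 ng and Mtf2 at 0.057 without CGs near a TSS. In uTOP-seq that choice gave -0.56 for Ezh2, 0.15 for Suz12 and -0.17 for Jarid2, and in the interaction 0.78 for Ezh2, 0.56 for Mtf2 and 0.52 for Rnf2. Exons of Mtf2 in uTOP-seq were at 0.39 with all transcript types and 0.0798 without replicate 3, with -0.059 the lowest value without 1 library. For promoters the TSS window gave -4.76 for Pcgf6 at 500 ng and -4.62 in the interaction, and in uTOP-seq -0.55 for Rnf2, -0.30 for Ring1 and -0.14 for Pcgf6. Pcgf6 was at -0.76 with 5 ng and, in uTOP-seq, at -0.11 without replicate 1 and 0.41 without replicate 3. With 1 library left at 500 ng, the comparisons of elements have values and no test.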
